A study of Oryza sativa with 4 samples.

Results

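Calcineurin B-like proteins (CBLs) and the kinases they activate, the CBL-interacting protein kinases (CIPKs), were followed in leaves of 3-week-old rice plants that overexpress OsBIERF3 (OsBIERF3-OE) and in wild type (WT). The genes were those of the array's probe-to-gene table whose symbol or synonym, with any Os prefix removed, is CIPK or CBL followed by a number. This gave 31 of the 17905 genes with a probe set, 24 CIPKs and 7 CBLs, each read by its brightest probe set. The gene table names 8 more, CBL1, CBL7, CIPK3, CIPK9, CIPK13, CIPK15, CIPK27 and CIPK33, which have no probe set there and were not analysed here.

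OsBIERF3 is a gene for an ERF protein, a class of transcription factors named for its part in ethylene responses. The series holds 4 Affymetrix rice arrays of 1 colour, 2 of WT and 2 of OsBIERF3-OE leaves, all from plants under normal growth with no stress treatment. The promoter of the transgene, the number of independent lines, the cultivar and the number of plants behind a sample are not given in the sources used here. The labels call the replicates biological without saying that they came from separate plants. A p-value here therefore speaks only of the spread between these 4 samples, which may be technical.

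Plants read many stimuli as changes in cytosolic calcium. A CBL binds calcium through EF hands and then docks onto the NAF (also FISL) motif of a CIPK, which releases the kinase from its own inhibitory domain and brings it to the plasma membrane or the vacuole. CIPKs form the SnRK3 branch of the SNF1-related kinases and are best known for control of sodium, potassium, nitrate and ammonium transport. In Arabidopsis, CBL4 (SOS3) with CIPK24 (SOS2) activates the sodium exporter SOS1, and CBL1 and CBL9 with CIPK23 activate the potassium channel AKT1. Rice and Arabidopsis numbers do not always mark the same gene, so each role below names its species.

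The median signal was 19.7 to 20.3 on the 4 arrays, and precision is limited by how few arrays there are. Of 6 photosynthetic leaf markers, 5 were above background on all arrays and RBCS1 on none, where background is the highest signal on that array among 33 controls that match no rice transcript (25.1 to 28.0). Dividing-cell markers moved with the genotype: all 12 tested rose, and their summed signal over 13 genes was 446 to 463 in WT and 5668 to 5924 in OsBIERF3-OE. The leaf markers summed to 49868 and 50267 in WT and to 44994 and 45412 in OsBIERF3-OE, with 2 of 5 tested lower and 0 higher. Over all genes tested, 14.5% were called lower and 17.2% higher. Both OsBIERF3-OE arrays were below both WT arrays for 4 of the 5 and above them for 1, RBCS. It read 17364 and 17546 in WT and 18046 and 18252 in OsBIERF3-OE and did not pass (limma adjusted p = 0.625). For seed storage markers, picked by gene name alone, 5 of 7 were below background on every array. GLB1 and GLUA2 were above it on all arrays and lower in OsBIERF3-OE. GLB1 read 1594 and 1486 in WT, and whether the gene of that name is the seed globulin was not checked. Of the root silicon transporter genes LSI1 and LSI2, LSI2 was below background on all arrays. LSI1 was above background on all arrays, at 283 and 235 in WT and 185 and 103 in OsBIERF3-OE, and did not pass (log2 change -0.90, limma adjusted p = 0.0849). For GAPDH, signal at the 3′ end over that at the 5′ end, a sign of RNA integrity, was 12.8 and 11.2 in WT and 7.37 and 7.25 in OsBIERF3-OE. Actin differed the same way (9.45 on both arrays against 5.73 and 4.81), ubiquitin less (1.52 and 1.38 against 1.17 and 1.24), and cyclophilin overlapped (1.71 and 1.82 against 1.82 and 1.81). The part of these differences in the results below was not tested, and in whole leaves fewer cells of a type and less RNA per cell cannot be told apart. OsBIERF3 itself was not analysed here, and no check of the genotype labels against its level was made.

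Among the 29 CBL and CIPK genes bright enough to be tested, 7 were lower and 1 was higher in OsBIERF3-OE. Those lower were CBL10 and the kinase genes CIPK1, CIPK10, CIPK12, CIPK16, CIPK17 and CIPK19, by 1.33-fold to 2.12-fold, and the one that rose was CIPK2, by 0.66 on the log2 scale. These 8 passed an adjusted p of 0.05 in limma, with Benjamini-Hochberg adjustment over all 34355 probe sets tested. The share called, 27.6%, was near the 31.8% of all 15981 genes tested. By direction it was 24.1% lower, beside 14.5% of all genes, and 3.45% higher, beside 17.2%. The median log2 change was -0.27 over the 29 genes and -0.043 over all genes tested, with 21 of the 29 below 0. No test was made of the genes as a set.

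**Figure D1:**
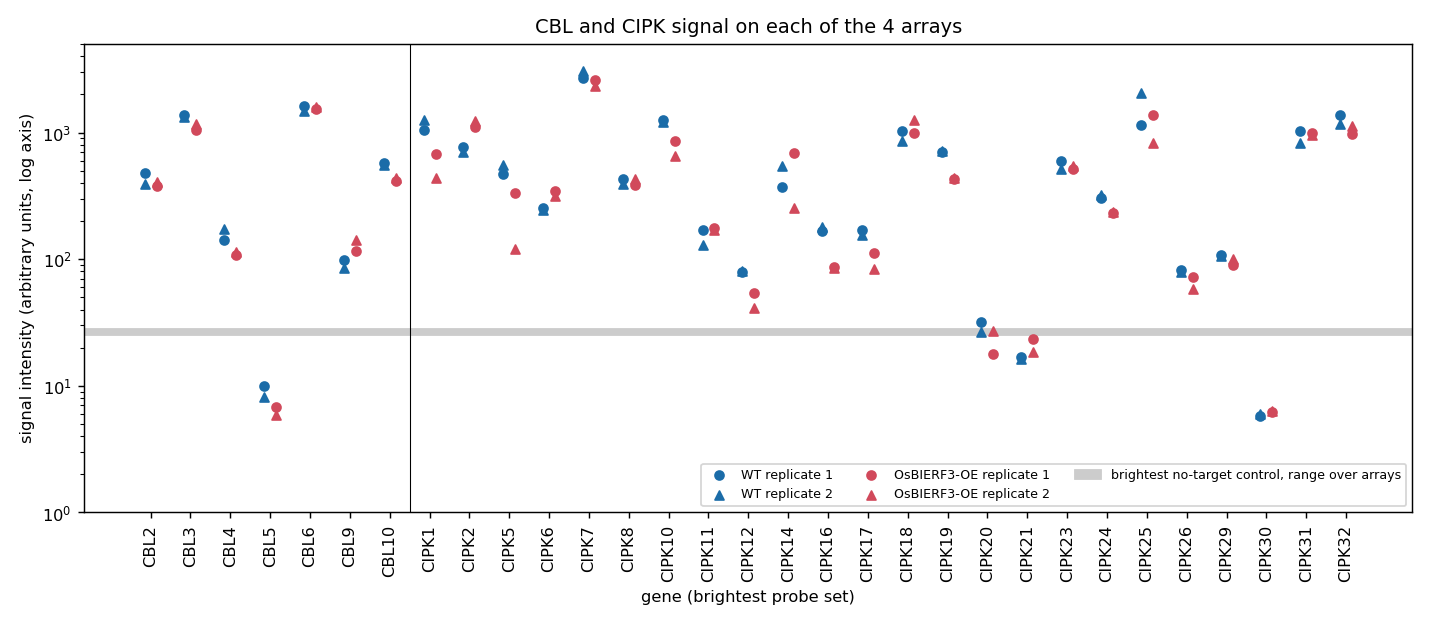
Signal intensity (arbitrary units, log axis) of each CBL and CIPK gene on the 4 arrays, WT in blue and OsBIERF3-OE in red, circles for replicate 1 and triangles for replicate 2; the grey band is the background level of 25.1 to 28.0. CBL5, CIPK30 and CIPK21 lie below the band on every array, and CIPK5 and CIPK14 show the widest gap between the OsBIERF3-OE arrays.

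**Figure D2:**
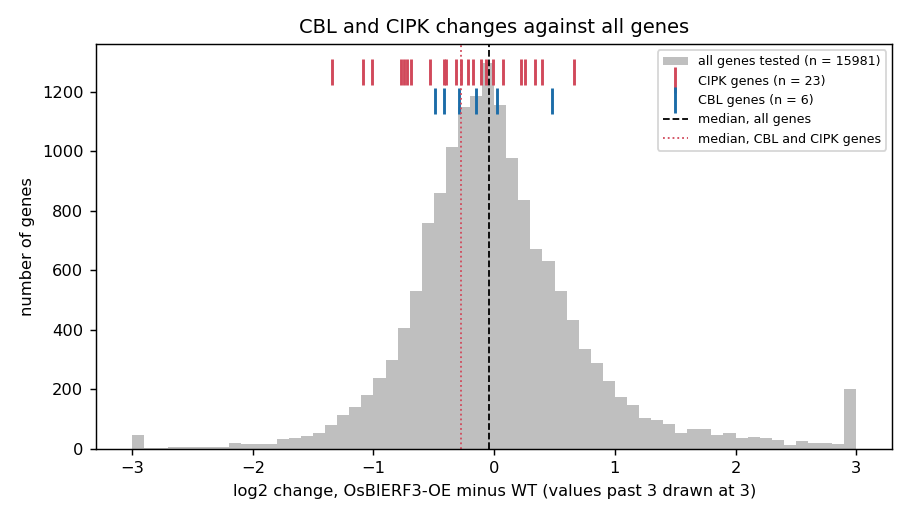
Number of genes (vertical axis) by log2 change, OsBIERF3-OE minus WT (horizontal axis), for all 15981 genes tested, with the 23 CIPK and 6 CBL genes tested as ticks. The ticks lie within the body of the distribution, and their median of -0.27 (dotted) is below the median of all genes, -0.043 (dashed).

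The direction of the median depended on how the arrays were brought to one scale. When the scale was set by the hybridization controls, bacterial and phage transcripts added at a fixed amount, the median of all genes moved up by 0.29 and that of the CBL and CIPK genes went from -0.27 to 0.0125. Relative to the median of all genes it was -0.23 under both scalings. That had to be so, since this scaling shifts the log2 change of every gene alike. Under that scaling 2 were called lower, CIPK1 and CIPK16, and 4 higher, CIPK2, CIPK6, CIPK21 and CBL9, while 34.3% of all genes were called, 5.41% as lower. CIPK1, CIPK16 and CIPK2 thus kept their call and direction under both scalings.

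Of the 6 CBL genes tested, CBL10 fell and 5 did not pass, a share called of 16.7% beside 31.8% of all genes. At an unadjusted p under 0.05, 4 of the 6 would count, beside 7822 of all 15981 genes tested. For 4 of the 6 the genotypes did not overlap, beside 73.8% of all genes tested. CBL10 (LOC4325933) in Arabidopsis acts with CIPK24 in the salt tolerance of shoots. Its signal was 575 and 558 on the WT arrays and 415 and 434 on the OsBIERF3-OE arrays. The genotypes did not overlap, and the signal was 1.33-fold higher in WT (log2 change -0.42, SE 0.11, limma adjusted p = 0.0481). This lay just inside the threshold and did not pass with any single array left out (limma adjusted p 0.13 to 0.181) or under the scaling on hybridization controls (log2 change -0.13, limma adjusted p = 0.44).

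CBL4 (LOC4339432), the rice counterpart of the Arabidopsis salt sensor SOS3, read 141 and 172 in WT and 108 and 114 in OsBIERF3-OE. Both OsBIERF3-OE arrays were below both WT arrays, with a log2 change of -0.49 (95% interval -0.89 to -0.09) that missed the threshold (limma adjusted p = 0.0785). CBL3 (LOC4333502) read 1372 and 1321 in WT against 1049 and 1157, also without overlap, at a log2 change of -0.29 (limma adjusted p = 0.11). Arabidopsis CBL2 and CBL3 sit at the vacuolar membrane. Rice CBL2 (LOC4352701), at 480 and 394 in WT and 375 and 408 in OsBIERF3-OE, overlapped between the genotypes. CBL6 (LOC4351575) did so too, with 1609 and 1469 in WT and 1540 and 1593 in OsBIERF3-OE, and its 95% interval of the log2 change ran from -0.23 to 0.29.

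CBL9 (LOC9269084) was the one sensor gene with higher signals on both OsBIERF3-OE arrays, 115 and 142 against 98.3 and 85.8 in WT. It did not pass (log2 change 0.48, limma adjusted p = 0.103), and both of its probe sets are of the kind Affymetrix marks as possibly shared between genes. LOC4325962, which the gene table lists under both CBL2 and CBL5 and which is called CBL5 here, gave 9.90 and 8.12 in WT and 6.77 and 5.89 in OsBIERF3-OE. All 4 values are below background, and the gene was too dim to be tested. The 95% intervals of all 6 CBL genes tested lay within a 2-fold change either way.

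Of the 23 CIPK genes tested, 6 fell, 1 rose and 16 did not pass. The share called, 30.4%, was near the 31.8% of all genes. By direction it was 26.1% lower and 4.35% higher, beside 14.5% and 17.2% of all genes. CIPK16 (LOC4347071) read 167 and 179 on the WT arrays and 86.1 and 85.6 on the OsBIERF3-OE arrays. The gap between the genotypes was far wider than that within either, and the signal was 2.02-fold higher in WT (log2 change -1.01, SE 0.13, limma adjusted p = 0.00848). It was the one CBL or CIPK gene that passed with each of the 4 arrays left out in turn, at log2 changes of -1.06 to -0.96 and limma adjusted p of 0.0267 to 0.0477. Its single probe set is of the kind possibly shared between genes, and its direct neighbour in the gene table is CIPK27, which has no probe set there.

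CIPK1 (LOC4325161), whose namesake in Arabidopsis links CBL1 and CBL9 to responses to drought and abscisic acid, read 1054 and 1249 in WT. In OsBIERF3-OE it read 674 and 435, so the genotypes stood apart while the OsBIERF3-OE arrays differed 1.55-fold from each other. The signal was 2.12-fold higher in WT (log2 change -1.08, SE 0.23, limma adjusted p = 0.0286). The log2 change was -0.77 without OsBIERF3-OE replicate 2 (limma adjusted p = 0.0537) and -1.40 without OsBIERF3-OE replicate 1, where it passed (0.0118).

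CIPK19 (LOC4339306) had close replicates, with 698 and 710 in WT and 433 and 441 in OsBIERF3-OE. The signal was 1.61-fold higher in WT (log2 change -0.69, SE 0.11, limma adjusted p = 0.0128). CIPK12 (LOC4325613), whose overexpression in rice has been tied to drought tolerance, was dimmer, with 79.8 and 81.3 in WT and 54.2 and 41.0 in OsBIERF3-OE. It was 1.71-fold higher in WT (log2 change -0.77, limma adjusted p = 0.0376). CIPK17 (LOC4337736) read 169 and 155 in WT against 113 and 83.0, 1.68-fold higher in WT (log2 change -0.74, limma adjusted p = 0.0441). The genotypes did not overlap for any of these 3 kinases.

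CIPK10 (LOC4332786) is read by 4 probe sets, and all of them were lower on both OsBIERF3-OE arrays. The brightest gave 1254 and 1207 in WT and 857 and 649 in OsBIERF3-OE, a log2 change of -0.72 (SE 0.16, limma adjusted p = 0.0304). The others had log2 changes of -0.80, -0.44 and -0.75, with limma adjusted p of 0.0135, 0.0486 and 0.0658. The 4 probe sets thus differed less in direction than in whether they passed.

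CIPK2 (LOC4344287) rose from 765 and 704 in WT to 1096 and 1222 in OsBIERF3-OE, without overlap (log2 change 0.66, SE 0.12, limma adjusted p = 0.0179). Its brightest probe set is of the kind possibly shared between genes. A second probe set, not of that kind, read 208 and 157 in WT and 256 and 244 in OsBIERF3-OE and did not pass (log2 change 0.47, limma adjusted p = 0.114). The third stayed below background on all arrays. With the mean of the 3 in place of the brightest, the log2 change was 0.39 and did not pass (limma adjusted p = 0.0872). CIPK29 (LOC4344285), the direct neighbour of CIPK2 in the gene table, read 109 and 105 in WT against 89.6 and 99.6 and did not pass (log2 change -0.18, limma adjusted p = 0.41).

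**Figure D3:**
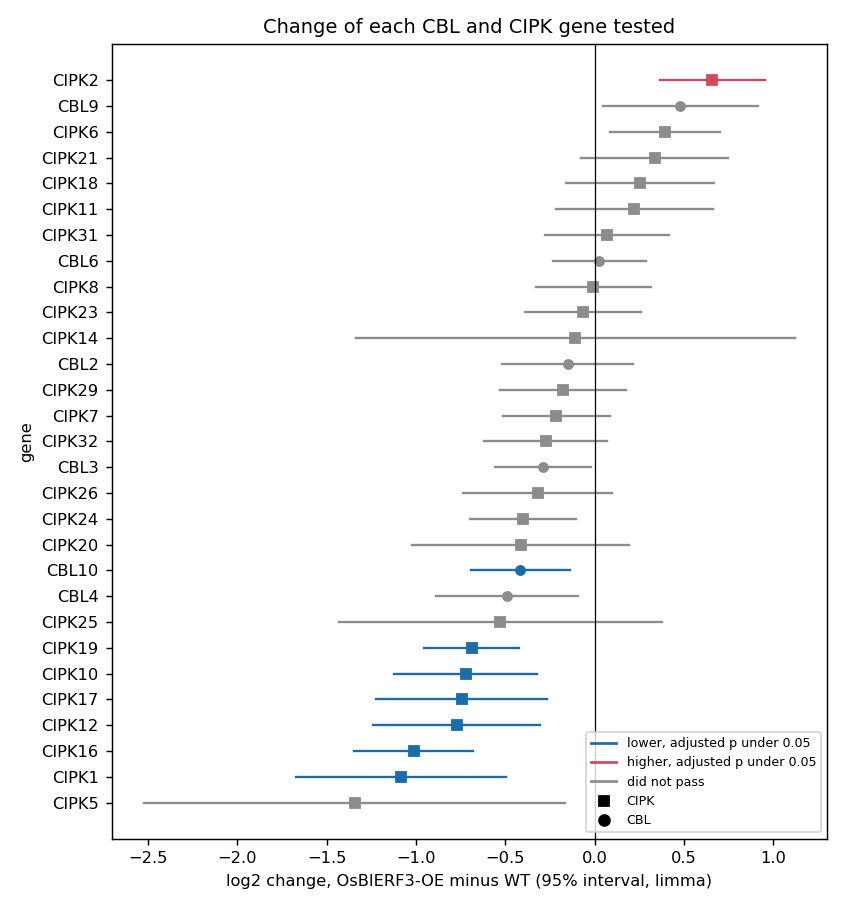
Log2 change of signal, OsBIERF3-OE minus WT (horizontal axis, points), with limma's 95% interval (bars) for the 29 genes tested, circles for CBLs and squares for CIPKs. The 7 genes that fell are blue, CIPK2, which rose, is red, and the 21 that did not pass are grey; CIPK5 has the lowest value and, with CIPK14, one of the widest intervals.

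Each of the 7 genes that passed other than CIPK16 lost its call in at least 3 of the 4 fits that left out an array. Without WT replicate 1, WT replicate 2 or OsBIERF3-OE replicate 2, CIPK16 alone was called, 1 of the 29 genes. Over all genes the share called in those fits was 16.8%, 12.6% and 14.5%. Without OsBIERF3-OE replicate 1, 8 genes were called, 7 of them among the first 8, with CIPK5 in place of CBL10, and 23.1% of all genes were called.

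**Figure D4:**
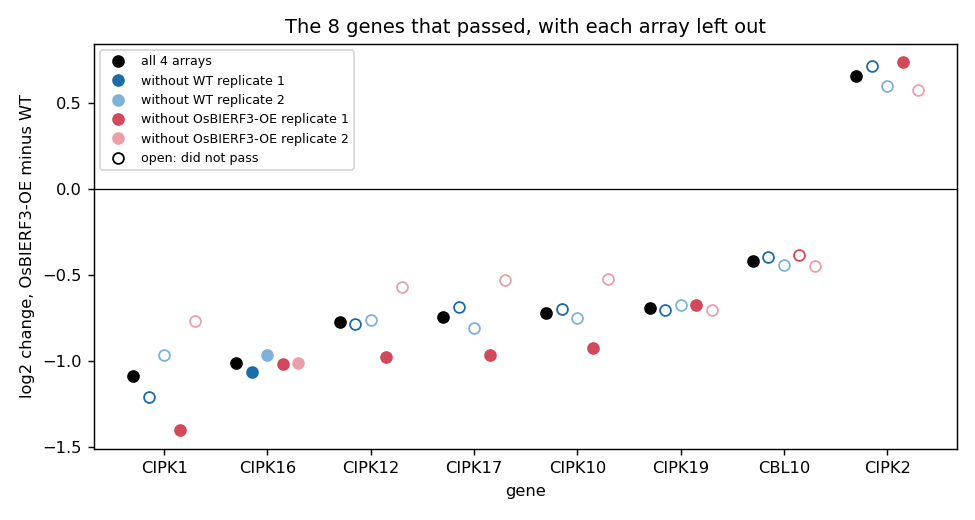
Log2 change of signal, OsBIERF3-OE minus WT (vertical axis), of the 8 genes that passed, with all 4 arrays (black) and with each array left out (colours); filled points passed limma's adjusted p of 0.05 and open points did not. Every point keeps its sign, which was fixed in advance, since the genotypes overlap for none of these 8 genes. CIPK16 is filled throughout, and CIPK1 moves most, from -1.40 to -0.77.

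CIPK5 (LOC4327093) had the lowest log2 change of the family, -1.34, and yet did not pass (95% interval -2.52 to -0.16, limma adjusted p = 0.0954). It read 469 and 551 in WT and 331 and 121 in OsBIERF3-OE, so both OsBIERF3-OE arrays were lower but 2.73-fold apart. That gap was wider than in 99.3% of all genes tested. The log2 change was -2.07 without OsBIERF3-OE replicate 1, where it passed (limma adjusted p = 0.00597), and -0.62 without OsBIERF3-OE replicate 2 (0.0929).

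CIPK14 (LOC4351307) showed a gap of like size, with 686 and 252 in OsBIERF3-OE on either side of 372 and 541 in WT. Its log2 change of -0.11 had a 95% interval of -1.34 to 1.12, so neither a 2-fold rise nor a 2-fold fall was detectable. Without OsBIERF3-OE replicate 2 the log2 change was 0.61, and without replicate 1 it was -0.83, and neither passed (limma adjusted p = 0.192 and 0.0922). Rice CIPK14 and CIPK15 are near-identical copies known from defence responses to a fungal elicitor, so the probe set may read both. CIPK25 (LOC4341236) varied in both genotypes, with 1148 and 2044 in WT and 1377 and 819 in OsBIERF3-OE, and overlapped.

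Among the kinases that fell, CIPK1, CIPK17, CIPK12 and CIPK10 also had wide gaps between the OsBIERF3-OE replicates. Theirs were wider than in 94.4%, 87.4%, 85.0% and 84.7% of all genes tested, and those of CIPK19 and CIPK16 than in 9.05% and 3.19%. Over CBL and CIPK genes together, the middle of the gaps was near that of all genes. The median gap between the OsBIERF3-OE replicates was 0.16 on the log2 scale for the 29 genes and 0.16 for all genes, and between the WT replicates it was 0.14 and 0.16. OsBIERF3-OE replicate 2 was the lower of its pair for 14 of the 23 CIPK genes and for 0 of the 6 CBL genes, beside 50.9% of all genes tested.

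CIPK24 (LOC4341477), the rice counterpart of the Arabidopsis salt tolerance kinase SOS2, lay just outside the threshold. It read 302 and 318 in WT and 232 and 238 in OsBIERF3-OE, without overlap (log2 change -0.40, 95% interval -0.70 to -0.10, limma adjusted p = 0.0638). CIPK6 (LOC4345687), in Arabidopsis a partner of CBL4 in moving a potassium channel to the plasma membrane, came next with higher signals in OsBIERF3-OE. It read 253 and 246 in WT against 342 and 313 (log2 change 0.39, limma adjusted p = 0.0722). At an unadjusted p under 0.05, 14 of the 29 genes would count, these among the 6 added, beside 7822 of 15981 genes.

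CIPK23 (LOC4342410), the kinase that activates AKT1 in Arabidopsis and rice, gave different answers by probe set. The brightest read 598 and 514 in WT and 515 and 545 in OsBIERF3-OE, so the genotypes overlapped (log2 change -0.066, 95% interval -0.39 to 0.26). The other read 296 and 282 in WT and 160 and 150 in OsBIERF3-OE, a 1.87-fold higher signal in WT (log2 change -0.90, 95% interval -1.22 to -0.59, limma adjusted p = 0.00963). The intervals do not overlap, and which transcript each probe set reads is not given in the sources used here. Averaged over both, the log2 change was -0.48 and passed (limma adjusted p = 0.0418).

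Of the 31 genes, 8 are read by several probe sets, 19 in all. In 4 of them, CIPK2, CIPK10, CIPK12 and CIPK23, some probe sets passed and others did not, and no gene had calls in opposite directions. The second probe set of CIPK12, above background on 2 of 4 arrays, had a log2 change of -0.48 (limma adjusted p = 0.182). For CIPK7 (LOC4333514), tied to chilling tolerance in rice, the gene table also lists the names TATA and THA4, so its probe sets may read different transcripts. They had log2 changes of -0.21 and -0.38, and neither passed (limma adjusted p = 0.248 and 0.0896).

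**Figure D5:**
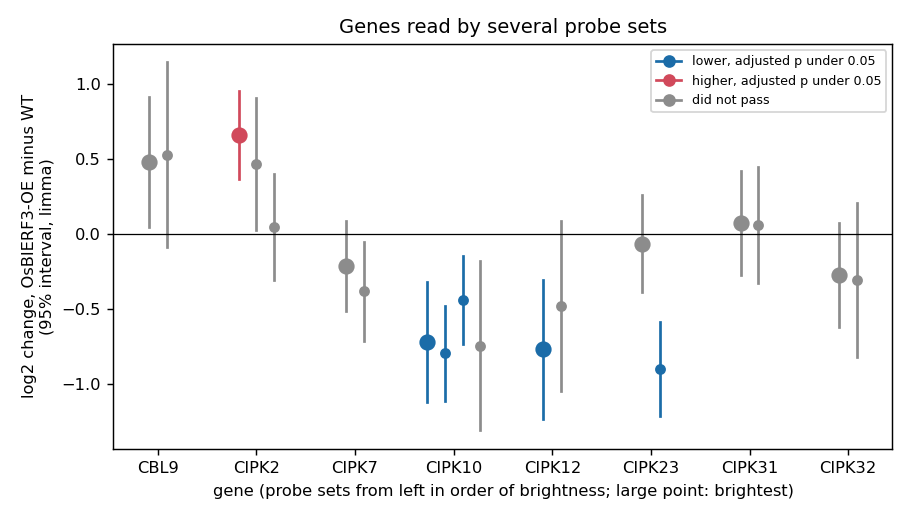
Log2 change, OsBIERF3-OE minus WT (vertical axis), with limma's 95% interval for each probe set of the 8 genes read by several, from left in order of brightness. The 4 CIPK10 probe sets all lie below 0, while the brighter CIPK23 probe set is near 0 and the other at -0.90.

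Most of the remaining kinases differed by less than the test could call. CIPK8 (LOC4326419), which takes part in nitrate responses in Arabidopsis, read 430 and 390 in WT and 386 and 431 in OsBIERF3-OE (log2 change -0.0068, 95% interval -0.33 to 0.32). CIPK31 (LOC4332665, also listed as CIPK3) read 1029 and 830 against 983 and 957 and overlapped as well. CIPK32 (LOC4351419) read 1375 and 1166 in WT against 974 and 1125, without overlap, and did not pass (log2 change -0.27, limma adjusted p = 0.207). CML3, a calmodulin-like gene that directly neighbours CIPK32, fell from 78.4 and 71.9 to 46.4 and 51.8 (limma adjusted p = 0.0396).

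CIPK18 (LOC4338445) and CIPK11 (LOC107275263) had log2 changes of 0.25 and 0.22, and CIPK26 (LOC4328383) had -0.32. CIPK20 (LOC4338083), above background on 3 of 4 arrays, read 32.0 and 26.7 in WT and 17.8 and 27.0 in OsBIERF3-OE. CIPK21 (LOC4344036), at 16.8 and 16.3 in WT and 23.4 and 18.6 in OsBIERF3-OE, was tested but below background on all arrays. CIPK30 (LOC4325611), the direct neighbour of CIPK12, read 5.79 to 6.28 and was too dim to be tested. For 17 of the 21 genes that did not pass, the 95% interval lay within a 2-fold change either way; the other 4 were CIPK5, CIPK14, CIPK20 and CIPK25.

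Without regard to the test, both OsBIERF3-OE arrays were below both WT arrays for 15 of the 29 genes (51.7%) and above them for 4, and 10 overlapped. Over all genes tested, 73.8% did not overlap, 39.4% with lower and 34.4% with higher signals in OsBIERF3-OE. With 2 arrays against 2, an exact two-sided permutation test of one gene cannot give a p below 0.333.

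The transporters, channels and oxidases of kinds that CIPKs phosphorylate were read from a list of 15 genes. In OsBIERF3-OE, 5 fell, 0 rose and 10 did not pass, with a median log2 change of -0.38 beside -0.043 over all genes. The share called, 33.3%, was near the 31.8% of all genes, of which 14.5% were lower and 17.2% higher. The potassium channel gene AKT1 (LOC4326245), the target of CIPK23, read 206 and 153 in WT and 83.2 and 97.2 in OsBIERF3-OE. It was 1.98-fold higher in WT (log2 change -0.98, limma adjusted p = 0.0242), on a probe set that other genes may share, and passed in 1 of the 4 fits that left out an array (limma adjusted p 0.0372 to 0.0823). The high-affinity potassium transporter gene HAK1 fell from 129 and 149 to 36.9 and 41.9, and the ammonium transporter gene AMT1-1 from 433 and 319 to 151 and 85.6. The brightest HAK1 probe set may also be shared with other genes. Its other probe set, not of that kind, had a log2 change of -1.92 (limma adjusted p = 0.0233). HAK1 passed in all 4 such fits, and AMT1-1 in all but that without WT replicate 1 (limma adjusted p = 0.0718). AMT1-1 has 2 probe sets, and with their mean in place of the brightest its log2 change was -0.99 (limma adjusted p = 0.0173) in place of -1.71. The other 2 that fell were the vacuolar potassium channel gene TPK3 and the calcium exchanger gene CAX1B. Under the scaling on hybridization controls 3 of the 15 passed, 2 lower and 1 higher, beside 34.3% of all genes called, 5.41% as lower.

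The other branches of the kinase superfamily, SnRK1 and SnRK2, gave 3 falls, 0 rises and 10 genes that did not pass, with a median log2 change of -0.18. The share called was 23.1%, beside 31.8% of all genes. All 3 are SnRK2 kinases of osmotic stress and abscisic acid signalling. SAPK1 read 808 and 883 in WT and 449 and 352 in OsBIERF3-OE, SAPK9 2330 and 2262 against 1359 and 1126, and SAPK6 585 and 492 against 344 and 277. Their limma adjusted p were 0.0106, 0.0101 and 0.0264. The single probe set of SAPK9 is of the kind possibly shared between genes. SAPK9 passed in all 4 fits with an array left out, SAPK1 in 3 (0.0543 without WT replicate 2) and SAPK6 in that without OsBIERF3-OE replicate 1 alone. None of the SnRK1 genes OSK3, OSK4 and SNRK1A passed.

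The other calcium decoders, calmodulins, calmodulin-like proteins (CMLs) and calcium-dependent kinases (CPKs), moved in both directions. Of 39 tested, 7 rose, 9 fell and 23 did not pass, with a median log2 change of -0.052. The share called was 41.0%, 17.9% higher and 23.1% lower, beside 31.8%, 17.2% and 14.5% of all genes. CPK3 rose from 814 and 728 to 1461 and 1486 (log2 change 0.94, limma adjusted p = 0.00643), and CML1 fell from 3916 and 3929 to 2081 and 1818 (log2 change -1.01, limma adjusted p = 0.00475). CML31 read 23.4 and 40.6 in WT, above background on 1 array, and 11.2 and 7.16 in OsBIERF3-OE, below background on both (log2 change -1.78, limma adjusted p = 0.0211). CML31 thus has no firm size of its fall, since 1 WT array was itself below background. It did not pass without WT replicate 2 or without OsBIERF3-OE replicate 2 (limma adjusted p = 0.0614 and 0.0663), nor with signals under 16 raised to 16 (log2 change -0.95, 0.0654). The 3 lists are set side by side here, and no test was made of a difference between them. With 1 array left out, none of the 3 lists gained calls. The share of all genes called fell as well, so fewer calls are not particular to the lists.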

How the data were processed

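Total RNA (2 µg) of rice leaves was turned into biotin-labelled cRNA for 1 array per sample, per the labels' protocols. The authors deposited a linear intensity for each probe set. Per the submitters' processing notes MAS5 was used, with no version or role stated. Any further normalization is not given in the sources used here. The arrays share nearly one distribution (within 0.0803 on the log2 scale at each rank). Titles gave each sample's group and replicate number.

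Values, with a lower limit of 1, were put on the log2 scale. After 123 controls were removed, the brightest 60% of probe sets by mean log2 signal, 34355, entered a test of genotype in limma 3.58.1 under R 4.3.3 (lmFit and a trended eBayes), called at a Benjamini-Hochberg adjusted p of 0.05. The fit, with 2 residual degrees of freedom, was tested on simulated data. Errors are SE of the log2 change or 95% intervals. Log2 changes are OsBIERF3-OE minus WT.

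Probe sets were named by gene ID through the RefSeq table of assembly GCF_034140825.1. That named 1 gene for 22436 probe sets and several for 95, and 34727 are unnamed here. Coordinates and sequences were not used here. Joins and counts used Python 3.11.15 with pandas 2.3.3. Every CBL and CIPK gene is accounted for, and of each other list up to 3 called genes with the largest change are named with values. TPK3, CAX1B and CML3 were named after their values were seen. Members and lists were chosen with earlier results of these data known. Alternatives were other filters, scalings, lower limits, probe set choices, a replicate block and each array left out. Same-numbered arrays are not stated to share plants or a day, and their deviations from the group means correlated at -0.25 over probe sets.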

Additional observations from a re-analysis of the deposited data

How the results depend on the processing

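Signs of the 8 CBL and CIPK genes that passed held under every alternative run, but many of these could not change a sign. Other filters, eBayes without the trend and the replicate block leave the log2 change as it was. Leaving out an array cannot reverse a gene whose genotypes do not overlap, as held for all 8. When hybridization controls set the scale, the median log2 change of the 29 genes was 0.0125. With that scaling 3 substrate genes were called in place of 5, beside 34.3% of all genes in place of 31.8%. Under it CBL2 (0.14), CIPK7 (0.0719), CIPK8 (0.28), CIPK14 (0.18), CIPK23 (0.22), CIPK29 (0.11) and CIPK32 (0.0125), none of which passed in either fit, turned positive. CIPK8 also did under quantile normalization (0.0115). With 1 array left out, log2 changes crossed 0 for 5 genes that did not pass in any of those fits: CIPK8 (-0.0856 to 0.0720), CIPK23 (-0.175 to 0.0438), CIPK14 (-0.83 to 0.61), CBL6 (-0.0387 to 0.0921) and CIPK31 (-0.0844 to 0.225). The cause was not tested.

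With the replicate number as a block, which these numbers do not establish as a pairing, 4540 probe sets were called in place of 8331. The share of all genes called was 16.3% in place of 31.8%. That block gave 1 CBL or CIPK gene (CIPK16) in place of 8, 2 substrate genes in place of 5 and 4 calcium decoders in place of 16. The crossed pairing, chosen after seeing the data, gave 12339 probe sets in place of 8331 and 15 CBL or CIPK genes in place of 8. The share over all genes was not computed for it, so nothing can be read from the 15. Leaving out 1 array gave 3270 to 6171 probe sets, 1 to 8 CBL or CIPK genes, 1 to 4 substrate genes, 1 to 3 related kinases, 2 to 10 calcium decoders and medians of -0.29 to -0.21. Raising dim signals to background, also chosen after seeing the data, left 8 genes called, beside 35.0% of all genes. By hybridization scaling 7729 probe sets were higher and 1615 lower, against 4273 and 4058. Signal over background limits CBL5, CIPK20, CIPK21 and CIPK30.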
